A study of Mus musculus with 60 samples.

Results

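The liver table of a mouse circRNA survey is described here. It held 900 circRNAs, out of 2799 different circRNAs in 4724 entries over the tables of 5 organs, and every row of it was taken. Whole liver came from male mice 4 months of age, 3 labelled Ftsj1_DF (Ftsj1-deficient; mice 1647, 1654 and 1656) and 3 labelled WT (mice 1646, 1653 and 1655). Mice 1653, 1654, 1655 and 1656 were brothers, as were 1646 and 1647, so both genotypes stood in each litter group. Frozen tissue was ground in a bead mill and RNA was taken up in a phenol reagent, cleared of rRNA, tailed with poly(A), treated with RNase R and sequenced on a NovaSeq instrument. Each mouse gave 1 liver library, read in 2 sequencing batches because the first had few reads, which makes 12 samples.

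CircRNAs arise when the spliceosome joins the end of an exon to the start of the same or an earlier exon. This back-splice closes the RNA into a ring with no free end, which is why RNase R, an exonuclease that degrades linear RNA from its end, enriches for rings. A locus can give several rings that use different back-splice sites, and most are made at a low level beside the linear mRNA of the same gene. Ftsj1 is an X-linked 2'-O-methyltransferase that modifies the anticodon loop of certain tRNAs. In a bulk tissue such as liver, fewer cells of a type and less RNA per cell cannot be told apart.

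Each row of the authors' deposited table names a circRNA by chromosome and both back-splice positions on build GRCm39. It gives the mean normalized count over all liver libraries of both genotypes, the log2 fold change and its standard error (SE), and the p-values of the authors' DESeq2 test. Neither labels nor headers say which genotype is the numerator, so signs are as deposited and no direction is assigned to a genotype. Values per mouse were not analysed here. The deposited SE stands for the error throughout, the SD between mice is unknown, and the depth behind each value is unknown too. Levels of different circRNAs are mean counts that were not scaled to length, because the length of the mature ring is not in the table. Neither the level of Ftsj1 nor markers of liver cells were analysed here, so genotype and tissue stand as labelled.

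The first question was which circRNAs made up the liver pool and how it was divided among them. The most abundant circRNA of the authors' deposited table, on chromosome 7 from 58890715 to 58896965, had a mean normalized count of 684.2. It held 3.61% of the summed mean normalized counts of the deposited table, the first 10 circRNAs held 18.8%, and the first 100 held 54.9%. The top of the list was thus shared by many circRNAs, and 79 of the 900 were needed to reach 50% of the sum. Only 26 circRNAs had a mean of at least 100 in the authors' deposited table, 404 had at least 10, and 899 had at least 1. The low end of the list was long: the lower 2 of 4 groups of 225 circRNAs, ranked by mean, held 4.02% and 8.13% of the deposited sum, against 72.5% in the highest group.

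After the leader came a circRNA on chromosome 4, 9635901 to 9639347, at 459.3 by the authors' deposited table. Next in that deposited table were chromosome 2, 70600348 to 70617339, at 390.4 and chromosome 17, 79957731 to 79966902, at 386.2. The fifth, on chromosome 5 from 118731398 to 118731635, spanned only 237 bp and had a mean of 338.7 as given by the authors' deposited table. Places 6 to 10 of the deposited table went to circRNAs on chromosome 1 (87291826 to 87307730, mean 288.8), chromosome 18 (span 1497 bp, mean 279.8), chromosome 14 (21284901 to 21290639, mean 260.9), and chromosome 1 again (178150699 to 178152878, mean 236.7, and 63187555 to 63187730, mean 231.5). The 10 came from 8 chromosomes and differed widely in span, from 175 bp for the last of them to 16991 bp for the circRNA on chromosome 2. The one on chromosome 18 was listed in the liver table alone of the 5 deposited tables, and the other 9 stood in 3 or 4 further tables.

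None of these 10 passed the genotype test, and their errors were among the smallest of the liver. Their log2 fold changes in the authors' deposited table ran from -0.59 (SE 0.62) for the sixth in rank to 0.97 (SE 0.84) for the tenth. The leader on chromosome 7 stood at -0.03 (SE 0.44) in the deposited table, with a 95% interval of -0.89 to 0.83. The 237 bp circRNA on chromosome 5 stood at 0.0007 (SE 0.45), interval -0.87 to 0.87, and the ninth in rank, on chromosome 1, at -0.0017 (SE 0.43), interval -0.85 to 0.84, in the authors' deposited table. These 3 intervals, and no others of the table, lay inside a 2-fold change in either direction. The smallest SE of the authors' deposited table, 0.38, belonged to the circRNA on chromosome 4, whose log2 fold change was 0.47 with an interval of -0.27 to 1.21. Besides 7 of these 10, the 10 smallest SE of the deposited table included chromosome 4, 130445465 to 130446662 (-0.36, SE 0.46, mean 178.9), chromosome 6, 88332465 to 88335624 (0.50, SE 0.46, mean 194.2), and chromosome 6, 31116664 to 31158084 (-0.14, SE 0.50, mean 168.0).

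Abundance set how large a change could have been seen. Over the 4 groups from least to most abundant, the median SE in the authors' deposited table was 2.93, 2.39, 1.79 and 1.00. At those errors an unadjusted p of 0.05 needs a fold change of 53.4, 25.7, 11.4 and 3.89. Smaller changes could not reach that p in a circRNA of median error, and only 63 circRNAs, all in the highest group, had a 95% interval inside a 4-fold change in either direction. Across the 900 circRNAs, mean and SE had a Spearman's rho of -0.92, given as a description because they share the same libraries.

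**Figure D1:**
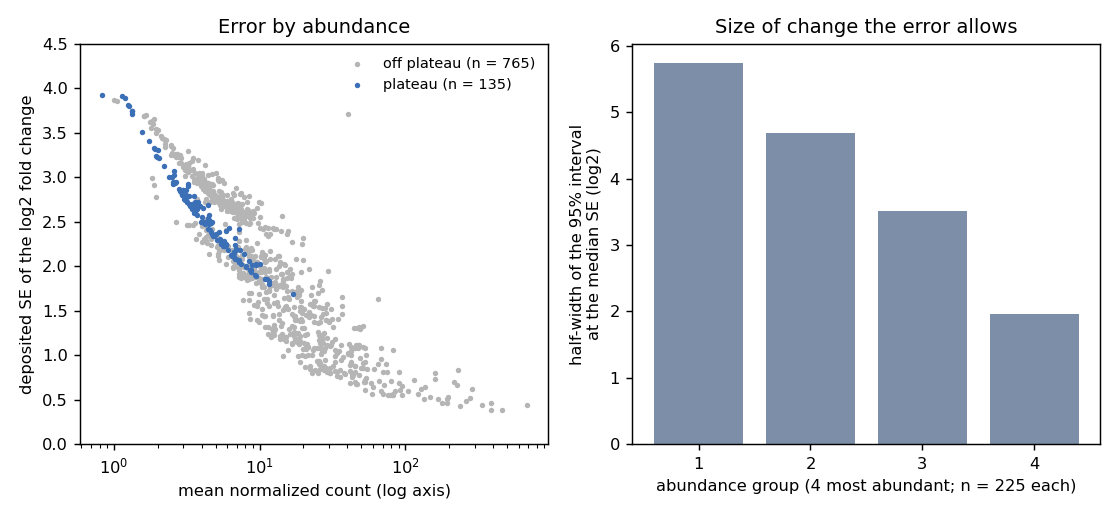
Left, the SE of the log2 fold change of each liver circRNA in the authors' deposited table against its mean normalized count on a log axis, with the 135 plateau circRNAs in blue. Right, bars give the half-width of the 95% interval at the median SE of each abundance group of 225 circRNAs, falling from 5.74 in group 1 to 1.96 in group 4 on the log2 scale.

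Error was not a function of abundance alone. Among the 225 circRNAs with means from 5.01 to 8.74, the SE of the authors' deposited table ran from 1.41 to 3.05. The 43 plateau circRNAs of that range, described below, had SEs of 1.96 to 2.43 in the deposited table. Off the plateau, 74 circRNAs also had an SE of 2.43 or less, 41 negative and 33 positive, with a median log2 fold change of -0.14. Above 2.43 lay 108 circRNAs, 41 negative and 67 positive, with a median log2 fold change of 0.33 and none with an unadjusted p below 0.05. The cut is the highest SE of the plateau circRNAs, which are all negative, so none of them could lie above it. Signs and p-values above the cut are therefore fixed in part by its choice. A single abundant circRNA stood far above the rest: chromosome 3, 94846957 to 94847537, with a mean of 40.5 and an SE of 3.72 in the authors' deposited table, picked out after its values were seen. Its log2 fold change of -0.35 in the deposited table carried an interval of -7.64 to 6.93.

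The main question of the liver table was which circRNAs differed between the genotypes. Among 883 circRNAs with a p-value, 1 passed an adjusted p of 0.05 in the authors' deposited table, which is 0.113% of the 883. Only 587 of them had an adjusted p and could pass. It lay on chromosome 17, from 79957731 to 79989111, and its log2 fold change was -7.11 (SE 1.69, 95% interval -10.4 to -3.79), with an adjusted p of 0.0154 by the authors' DESeq2 test. Its mean normalized count of 17.03 in the deposited table was the highest of any circRNA on the plateau of fitted fold changes described below. Adjusted over all 883 p-values in place of the 587 to which the authors gave an adjusted p, its value was 0.0232. With a t reference of 4 degrees of freedom, or with the SE enlarged by the root of 2 as if both runs of a library had entered the fit as samples, it was not called (both adjusted p = 0.999).

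A looser threshold, an adjusted p below 0.1 by the authors' deposited table, was passed by 17 circRNAs, and all 17 had a negative sign. They were 1.93% of the 883 with a p-value, of which 296, with means of up to 6.12, had no adjusted p and could not pass. They came from 13 chromosomes, had means of 8.03 to 17.03 in the deposited table and spanned 317 to 31380 bp. After the called one, the lowest adjusted p of the authors' deposited table, 0.0610, was shared by 4 circRNAs. These were on chromosome 5 from 66520061 to 66522463 (-6.55, SE 1.80), chromosome 10 from 89309614 to 89319386 (-6.54, SE 1.84), chromosome 17 from 24652107 to 24653129 (-6.50, SE 1.85) and chromosome 10 from 12312025 to 12331308 (-6.46, SE 1.86) in that deposited table. In the authors' DESeq2 test the other 12 had values of 0.0866 to 0.0982 after adjustment. Chromosome 16 gave 3 of them in the deposited table, at 62647527 to 62651176 (-6.25, SE 1.89), 16043165 to 16048640 (-6.22, SE 1.90) and 91461086 to 91461710 (-6.00, SE 1.99).

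The shortest of the 17, on chromosome 15 from 61978997 to 61979314, was also the only one off the plateau. In the authors' deposited table its mean was 13.2 and its log2 fold change -4.97 (SE 1.59, interval -8.09 to -1.85). The other 8 lay on chromosome 19 (37302547 to 37308011, -6.12), 14 (6175090 to 6178992, -6.11), 11 (106312532 to 106314314, -6.10), 3 (121558650 to 121566015, -6.31), 13 (38072847 to 38083763, -6.23), 4 (140895024 to 140907843, -6.21), 6 (134518615 to 134519008, -6.14) and 12 (40681521 to 40690444, -5.99), with SEs of 1.93 to 2.03 in the authors' deposited table. Of the 17, 15 (88.2%) were the only circRNA at their locus, beside 657 of all 900 (73%), and 12 (70.6%) were listed in at least 1 other organ's table, beside 68.1% of all.

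**Figure D2:**
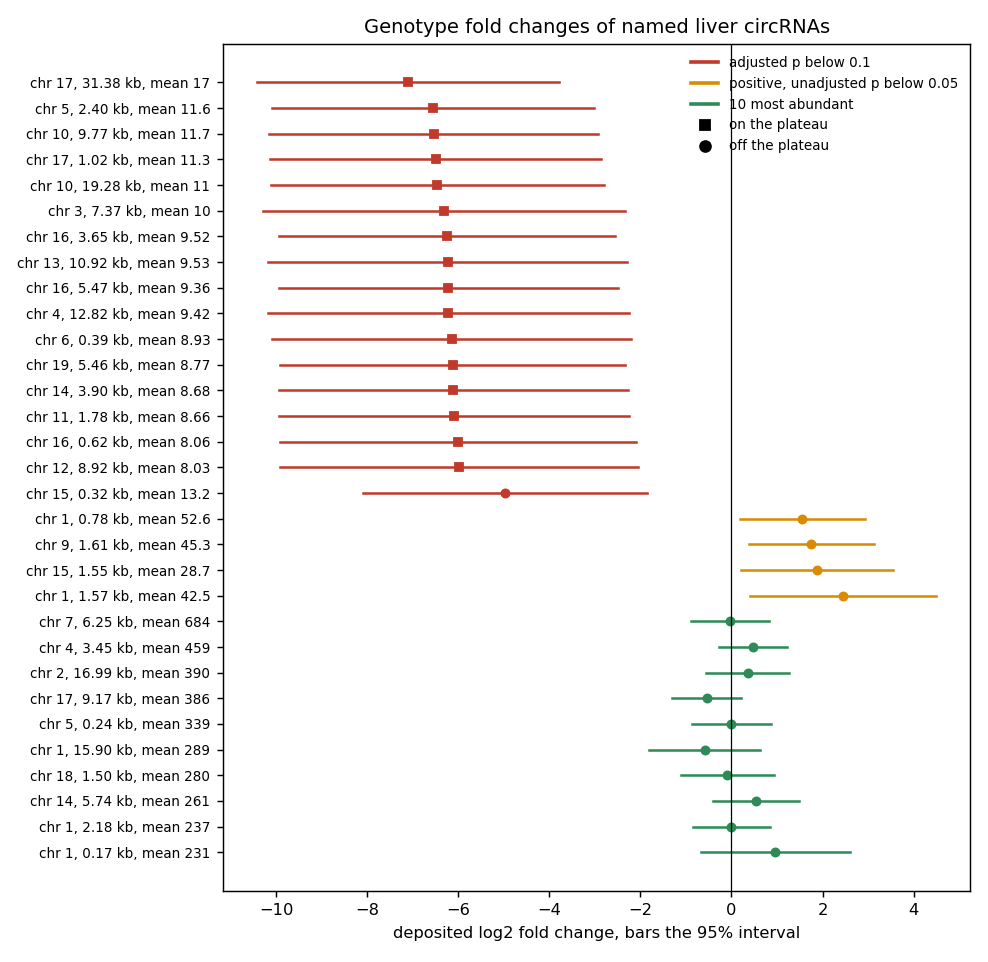
Log2 fold changes in the authors' deposited liver table with 95% intervals of 1.96 SE, for the 17 circRNAs at an adjusted p below 0.1 (red), the 4 positive circRNAs at an unadjusted p below 0.05 (gold) and the 10 most abundant (green), labelled by chromosome, span and mean normalized count. The red intervals all lie below 0, the gold ones just above 0, and the green ones include 0.

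At an unadjusted p below 0.05 there were 80 circRNAs in the authors' deposited table, 9.06% of the 883. The negative side had 76 of them (8.61%) and the positive side 4 (0.453%). By abundance group, from least to most abundant, the negative ones numbered 18, 43, 15 and 0, and the positive ones 0, 0, 0 and 4. Each negative circRNA at this threshold had a mean of 17.03 or less in the authors' deposited table, and each positive one 28.7 or more. This split follows in part from the plateau described below. It held 73 of the 76, is all negative and ends at a mean of 17.03. The largest positive fold change of the liver, 4.32 (SE 2.47) on chromosome 9 from 59344054 to 59361752, had an interval of -0.52 to 9.16 in the authors' deposited table.

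The 4 positive circRNAs were short, and all were in the most abundant group. Chromosome 9, 72499033 to 72500642, had a mean of 45.3 and a fold change of 1.76 log2 units (SE 0.70, adjusted p = 0.199 in the authors' DESeq2 test). On chromosome 1 they were at 87808090 to 87809661, with a mean of 42.5 and 2.46 (SE 1.04, adjusted p = 0.268), and at 91312287 to 91313068, with 52.6 and 1.56 (SE 0.70, adjusted p = 0.360), all from the authors' deposited table. The last, on chromosome 15 from 79425235 to 79426787, had a mean of 28.7 and a fold change of 1.88 log2 units (SE 0.85, adjusted p = 0.360) in the deposited table. Their spans were 781 to 1609 bp, and the lower ends of their intervals lay between 0.18 and 0.41. None of the 4 passed the test after adjustment.

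Most of the negative circRNAs with small p lay on a plateau, a line along which the fold change followed the mean. For 135 circRNAs, 15% of the table, the size of the log2 fold change exceeded the log2 of the mean by 2.89 to 3.02 in the authors' deposited table. The next value was 1.79, which belonged to the positive circRNA on chromosome 9 that had the largest positive fold change. All 135 were negative. If the deposited mean is the equal-weight mean of both genotypes, a value on this line corresponds to a numerator group at 0.232 to 0.255 normalized counts whatever the abundance, with the other group at 1.42 to 33.8 and a median of 8.55. The same arithmetic gave no circRNA with a denominator group under 0.3, and the lowest was 0.551. Whether the libraries of the numerator group were at 0 was not analysed here. The fold changes, SEs and intervals of plateau circRNAs given throughout are therefore the fitted values of the authors' deposited table, not measured sizes or bounds of a change.

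**Figure D3:**
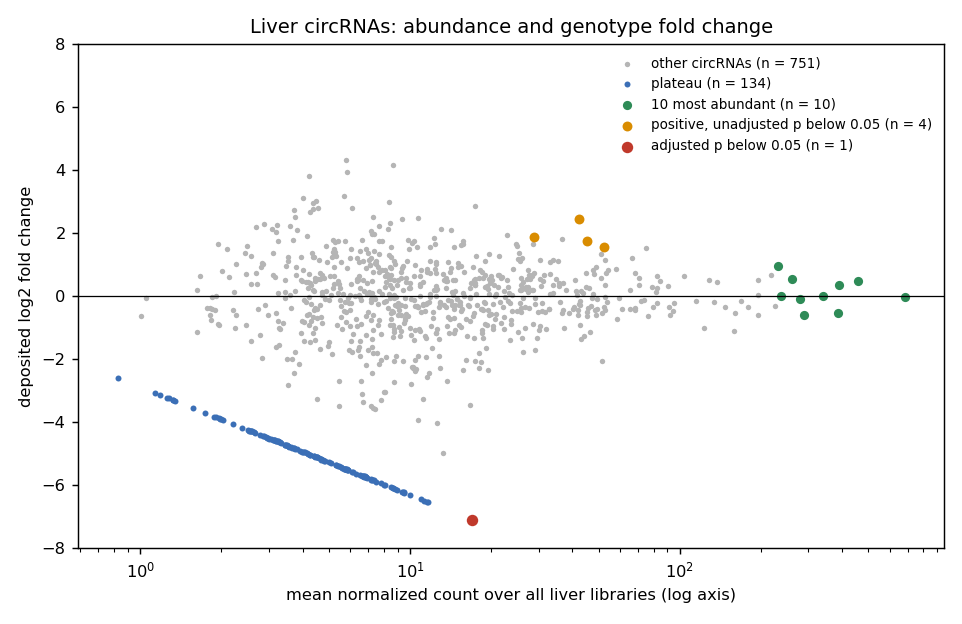
Log2 fold change of the 900 liver circRNAs in the authors' deposited table against mean normalized count on a log axis. The 135 plateau circRNAs (blue, and the called one in red) form a line that ends at a mean of 17.03, with no line of that kind above 0, and the 10 most abundant (green) lie within 1 of 0.

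On the plateau the p-value followed the mean. By the authors' deposited table, 73 of the 135 circRNAs had an unadjusted p below 0.05, all with means of 3.99 or more, and none of those above 4.40 missed it. For 98 of the 135 the deposited table gave no adjusted p. After the called circRNA, those with the highest means in the authors' deposited table were on chromosome 10 from 89309614 to 89319386 (11.7) and chromosome 5 from 66520061 to 66522463 (11.6). Off the plateau, 7 of 748 circRNAs with a p-value (0.936%) had an unadjusted p below 0.05 in the deposited table, 4 positive and 3 negative. Besides the one on chromosome 15, the negative ones were on chromosome 4 from 117439797 to 117450359 (-3.94, SE 1.63) and chromosome 3 from 121585383 to 121590134 (-4.04, SE 1.68) in the authors' deposited table, both at 0.241 after adjustment in the authors' DESeq2 test. Over all 900 circRNAs 516 were negative and 384 positive, and off the plateau 381 and 384. The plateau is defined from the fold change and is all negative, so the counts off it follow in part from that definition.

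At an excess of 2.5 or more, the other 4 organs held fewer circRNAs than the liver. That limit lies in the gap of the liver values, and no gap was looked for in the other organs. There were 18 negative and 4 positive circRNAs of 1856 in brain, 5 and 2 of 664 in heart, 8 and 24 of 996 in kidney and 1 and 2 of 308 in spleen, computed from the authors' deposited tables. Of the 135 liver plateau circRNAs, 93 (68.9%) were listed in at least 1 other table, beside 613 of all 900 (68.1%). The plateau held 14.6% of the 287 circRNAs listed in liver alone, 19.6%, 16.7% and 14.97% of those listed in 1, 2 and 3 other deposited tables, and 7.52% of the 133 listed in all 5. The 133 were more abundant than those of liver alone, with a median mean of 28.6 against 6.86 in the deposited liver table.

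The 12 circRNAs at an adjusted p below 0.1 in liver that other tables listed had 31 entries there. These entries had 17 positive and 14 negative log2 fold changes, from -2.07 to 4.83 in the authors' deposited tables, and 30 of their 31 intervals included 0. The called circRNA was listed in brain only, at -0.77 (SE 1.95) and a mean of 2.58 by the authors' deposited table. The exception was chromosome 4, 140895024 to 140907843, which stood at -6.21 in liver and 4.83 (SE 1.73) in kidney, both from the authors' deposited tables. That difference of -11.0 (SE 2.66) had an adjusted p of 0.112 over 3341 differences between organs from the deposited DESeq2 estimates, and of 0.0471 over the 1405 that involve liver. Its liver value is on the plateau, and the test treats errors as independent although the same 6 mice gave all 5 organs. None of the 3341 passed an adjusted p of 0.05, while 115 (3.44%) had an unadjusted p below 0.05. Because these circRNAs were picked for their liver value, the sign of their differences is fixed in part by that choice. The off-plateau circRNA on chromosome 15 was listed in all 5 organs, at 0.19 (SE 1.08) in brain, -1.51 (SE 1.73) in heart, -0.99 (SE 1.38) in kidney and -1.56 (SE 1.45) in spleen, all from the authors' deposited tables. Entries of the 4 positive liver circRNAs in the other organs numbered 13 in the authors' deposited tables, 7 of them positive, and all 13 intervals included 0.

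Genomic span, the distance between both back-splice positions with introns included, ran from 138 to 161066 bp. Its median was 4181.5 bp (95% binomial interval 3684 to 4827) and its quartiles were 1291 and 12202 bp. Spans under 1 kb were found for 192 circRNAs (21.3%), among them 111 under 500 bp, spans of at least 10 kb for 271 (30.1%), and spans of at least 50 kb for 38. The longest, 161066 bp on chromosome 13 from 45948985 to 46110051, had a mean of 32.9 and a fold change of -0.42 log2 units (SE 0.92) in the authors' deposited table. The next were chromosome 8, 73940753 to 74066914 (126161 bp, mean 7.20, -5.80, on the plateau), and chromosome 13, 45888591 to 46005932 (117341 bp, mean 2.73, -0.40), in the deposited table. The last of these overlaps the longest. The shortest were on chromosome 10 from 80006036 to 80006174 (138 bp, mean 2.46), chromosome 2 from 20865782 to 20865921 (139 bp, mean 6.25) and chromosome 13 from 42208876 to 42209018 (142 bp, mean 35.8), and their log2 fold changes were 0.69, 0.01 and 0.31 in the authors' deposited table. Span had little relation to abundance, with a Spearman's rho of -0.09 across circRNAs of the same libraries, and the median span was 3292 bp in the most abundant group and 5691 bp in the least.

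The share of circRNAs on the plateau went up with span, given here as a description because the circRNAs share their libraries. From the shortest to the longest of 4 groups of 225, the plateau held 8.89%, 9.78%, 17.3% and 24.0% of the circRNAs, and the median log2 fold change from the authors' deposited table was 0.14, -0.13, -0.31 and -0.50. Plateau circRNAs had a median span of 9411 bp, the others 3648 bp. Since the plateau also took more of the rare circRNAs, the shares were set out within abundance groups. In the least abundant group they were 22.2%, 26.7%, 38.5% and 48.6% from short to long, in the next 10.3%, 14.5%, 24.1% and 27.8%, and in the third 4.00%, 3.45%, 7.04% and 6.52%. The step with span was thus seen in the 2 groups with means under 8.76 of the deposited table, was small in the third, and the fourth had no plateau circRNA. Off the plateau, span and log2 fold change had a Spearman's rho of -0.09, against -0.18 over all 900, again as descriptions.

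**Figure D4:**
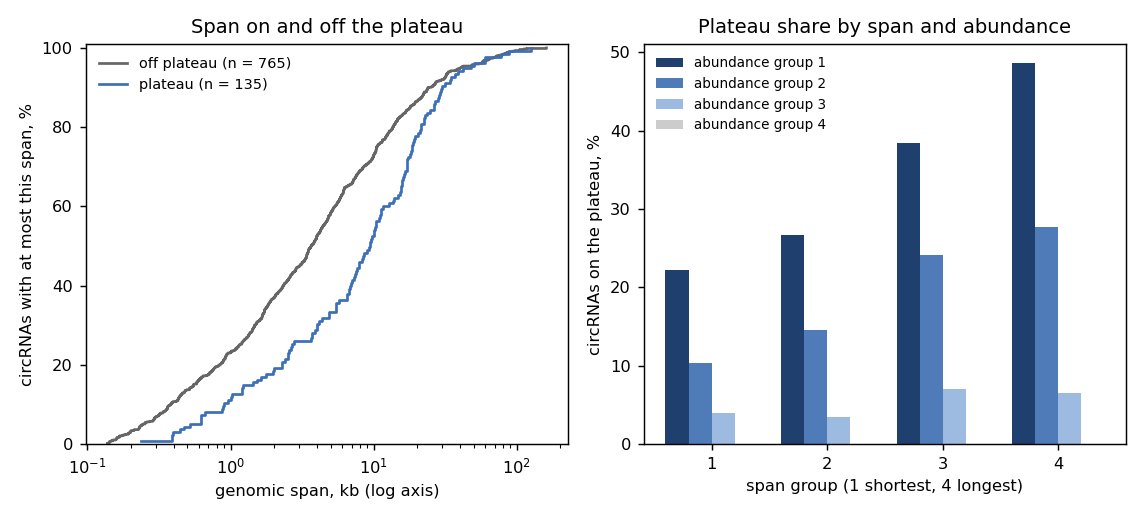
Left, the cumulative share of circRNAs against genomic span in kb on a log axis for the 135 plateau circRNAs and the 765 others, with medians of 9411 and 3648 bp. Right, bars give the share of circRNAs on the plateau for each span group within each abundance group, rising to 48.6% for the longest spans of the least abundant group and 0 in the most abundant group.

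Joining circRNAs that overlap gave 755 loci, of which 98 held at least 2 circRNAs. These 98 loci held 243 circRNAs, 27.0% of the table: 69 had 2, 18 had 3, 7 had 4, 2 had 5, 1 had 6 and 1 had 7. Most of the overlaps came from a back-splice position used more than once. There were 63 start positions shared by 136 circRNAs and 50 end positions shared by 110, and 225 circRNAs shared at least 1 of their ends. Start and end are in genome order, since the strand is not in the table. CircRNAs that shared a locus had a median span of 12193 bp, and those alone at theirs 2881 bp. A locus was built from overlap, which a longer span meets more easily.

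The most abundant circRNA of a shared locus is called its leader. It held a median of 66.6% of its locus's summed mean in the authors' deposited table, with a range of 37.5% to 99.2%, and over 90% at 8 loci. In the 69 loci with 2 circRNAs, where the leader's share is at least 50% by definition, its median was 73.4%, and in the 29 larger loci it was 51.1%. The most abundant liver circRNA, on chromosome 7, held 99.2% of its locus in the deposited table. The plateau held 4 of the 98 leaders (4.08%) and 39 of the 145 others of the same loci (26.9%). The others were also rarer, with a median mean of 7.03 against 20.8 for leaders in the authors' deposited table. Within the least abundant group, 45.8% of 48 such others and 32.8% of 177 leaders or lone circRNAs were on the plateau. In the next group these shares were 30.8% of 52 and 15.6% of 173, and in the third 4.17% of 24 and 5.47% of 201. The others were longer as well, with median spans of 17972 and 18336 bp in the lower 2 groups against 4272 and 2928 bp. The part of span in these shares was not tested.

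The called circRNA shared its start with 2 more on chromosome 17. From the common start at 79957731, the 3 ended at 79966902, 79980002 and 79989111, which gives spans of 9171, 22271 and 31380 bp. Their means in the authors' deposited table were 386.2, 26.3 and 17.03, so the level dropped with span. The log2 fold changes of the deposited table went the same way, -0.54 (SE 0.38), -1.79 (SE 1.43) and -7.11 (SE 1.69). All were negative, and the intervals of the shorter 2 included 0. The shorter 2 differed by -1.25 (SE 1.48), with an adjusted p of 0.999 from the deposited DESeq2 estimates, so a step between them was not shown. The difference between the longest and the shortest was -6.56 (SE 1.73, 95% interval -9.96 to -3.16). Of 221 pairs of circRNAs within a locus it was the only one with an adjusted p below 0.05, at 0.0339 from the deposited DESeq2 estimates. This pair result is limited because the longest is on the plateau, where the fitted fold change follows the mean, so it is a difference of fitted values and not a measured difference between isoforms. Both also come from the same libraries, so their errors may be correlated, which this test leaves out. With the larger SE or the t reference no pair passed.

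Among the 221 pairs, 84 shared a start, 74 an end and 63 neither. A locus is a run of overlaps, so 2 of its circRNAs need not overlap each other. Of the 63 pairs, 35 overlapped by under 500 bp or not at all. At an unadjusted p below 0.05 there were 20 pairs (9.05%), and 19 of them had a plateau circRNA. The remaining one was on chromosome 2, between 6341179 to 6413820 (-3.50) and 6395866 to 6399366 (1.64) of the authors' deposited table, with a difference of 5.14 (SE 2.36). After the chromosome 17 pair the lowest adjusted p was 0.371. In 4 pairs that shared a position, the other position lay within 20 bp. The pair on chromosome 4 that starts at 130445465 and 130445468 and ends at 130446662 had means of 178.9 and 7.38 and log2 fold changes of -0.36 (SE 0.46) and -5.85, the latter on the plateau, in the authors' deposited table. The other 3 pairs, on chromosome 6 (2 pairs) and 16, differed by 0.07 to 1.27 in log2 fold change in either direction, less than the SE of each difference.

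**Figure D5:**
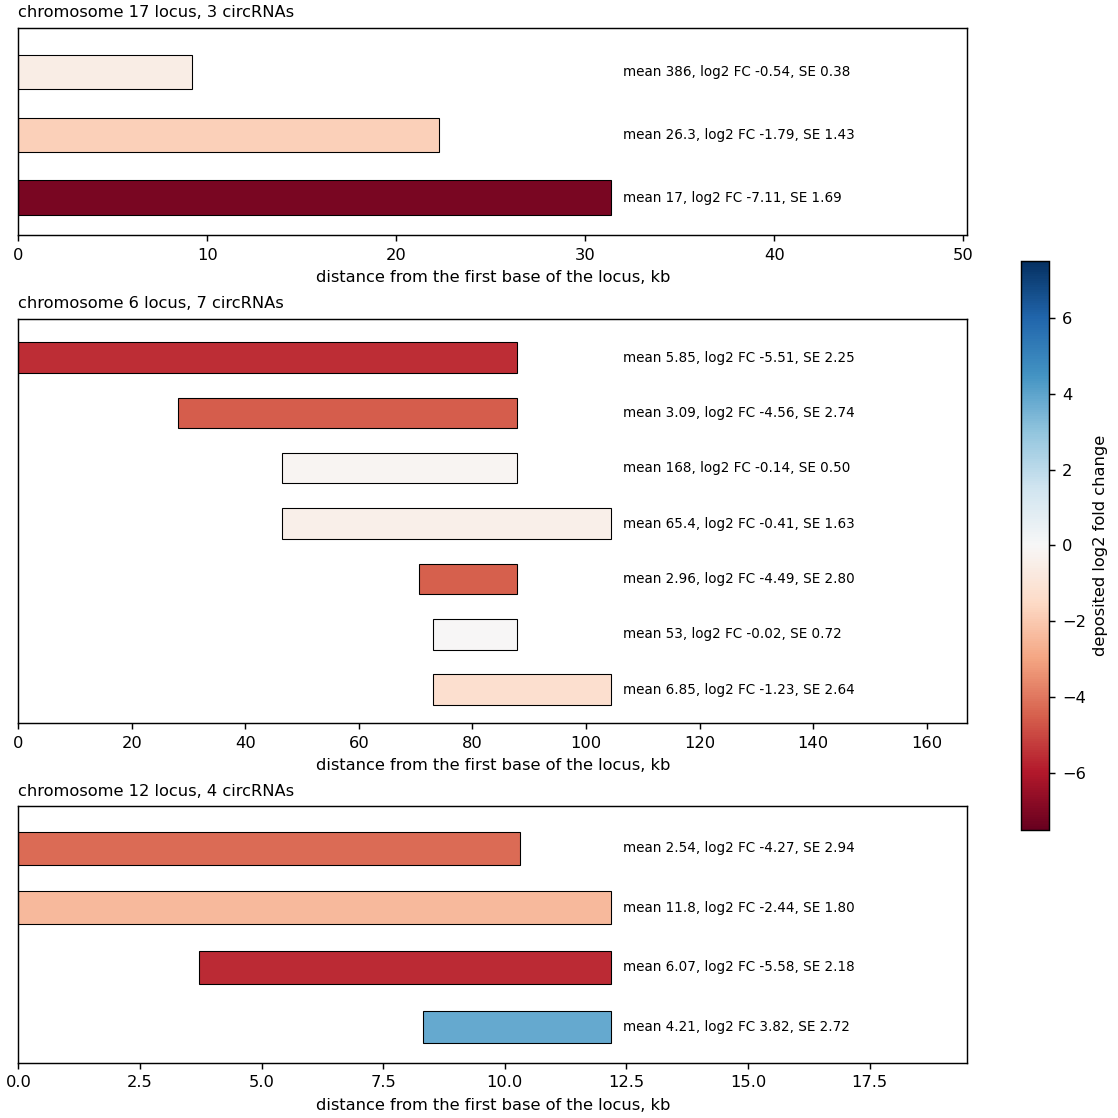
CircRNAs of 3 loci as bars from the first base of the locus, in kb, coloured by the log2 fold change of the authors' deposited table, with mean, fold change and SE beside each bar. On chromosome 17 the fold change goes from -0.54 for the shortest to -7.11 for the longest, on chromosome 6 the 3 darkest bars are the 3 least abundant, and on chromosome 12 a bar at 3.82 shares its end with one at -5.58.

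With 7 circRNAs, the locus on chromosome 6 from 31070298 to 31174786 was the richest of the liver. Its leader, 31116664 to 31158084, had a mean of 168.0 and a fold change of -0.14 log2 units (SE 0.50) in the authors' deposited table. The next by abundance, at means of 65.4 and 53.0, stood at -0.41 (SE 1.63) and -0.02 (SE 0.72) in the deposited table. At the other end, 3 circRNAs with means of 5.85, 3.09 and 2.96 were on the plateau at -5.51, -4.56 and -4.49, and all 3 shared the leader's end at 31158084. The seventh had a mean of 6.85 and stood at -1.23 (SE 2.64) by the authors' deposited table. All 7 signs were negative, beside 516 of all 900, and the plateau, which held 3 of the 7, is all negative. Only the plateau circRNA at -5.51 had an unadjusted p below 0.05, beside 80 of all 883 (9.06%). The 7 share their libraries and are not replicates.

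The second locus on chromosome 6, from 99405750 to 99437411, held 6 circRNAs, 4 of which started at 99412177. Its leader, ending at 99433541, had a mean of 42.01 and a fold change of -0.43 log2 units (SE 0.69) in the authors' deposited table. The other 5 had means of 4.202 to 13.7 and log2 fold changes from -5.02, on the plateau, to 0.47 in that deposited table. Another locus on chromosome 6, 134039027 to 134114380, had 5 circRNAs, and its leader, 134043270 to 134043428, held 37.5%, the lowest leader share of the 98 shared loci. A circRNA starting at 134039027 with the same end followed it closely, with means of 54.3 and 53.0 and log2 fold changes of 0.84 (SE 0.85) and 1.14 (SE 0.92) in the authors' deposited table. The other 3 stood at -1.54 to 0.19 in the deposited table, and none of the 5 was on the plateau.

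The locus on chromosome 2 from 6341179 to 6413820 also held 5 circRNAs. Its leader ran from 6341179 to 6341786, with a mean of 47.7 and a fold change of 0.84 log2 units (SE 1.08), and its longest circRNA shared that start and stood at -3.50 (SE 2.09, mean 7.18), in the authors' deposited table. Of 7 loci with 4 circRNAs, the one with the highest sum was on chromosome 2 from 139819527 to 139899419, where all 4 ended at 139899419. The shortest of these led with a mean of 122.5 and a fold change of -1.02 log2 units (SE 0.56, interval -2.11 to 0.08) in the authors' deposited table. The longer 3 had means of 2.79 to 10.3 and stood at -4.41, -1.80 and 0.64 in the deposited table, the first of them on the plateau.

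Loci could also hold fold changes of both signs. On chromosome 12, from 86303642 to 86315835, picked after its values were seen, 4 circRNAs stood at -5.58 (SE 2.18), -4.27 (SE 2.94), -2.44 (SE 1.80) and 3.82 (SE 2.72) by the authors' deposited table. The positive one was the shortest, 86311956 to 86315835. It differed from the one at -5.58, which had the same end, by 9.39 (SE 3.49), with an adjusted p of 0.371 over the 221 pairs of deposited DESeq2 estimates. The values of -5.58 and -4.27 are fitted ones on the plateau. At 2 loci every circRNA was on the plateau. On chromosome 1 the 3 circRNAs that start at 51852162 and end at 51863360, 51873702 and 51902593 had means of 3.52, 4.26 and 6.72 and stood at -4.75, -5.03 and -5.72 in the authors' deposited table, the level growing with span. On chromosome 13 the 2 circRNAs that start at 90139192 had means of 7.19 and 1.27 in the deposited table.

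Lastly, the authors' deposited table gave no p-value to 17 circRNAs, for a reason not given in the sources used here. Their means ran from 6.04 to 36.9 in the deposited table, 10 were positive and 7 negative, and none was on the plateau. The most abundant was on chromosome 2 from 26875435 to 26877121, with a mean of 36.9 and a fold change of -0.44 log2 units (SE 1.65) in the authors' deposited table. Next were chromosome 5, 127727747 to 127734202 (mean 26.2, 0.27) and 90446399 to 90451924 (23.6, -1.41), chromosome 8, 41468425 to 41475631 (19.6, 1.33), and chromosome 11, 4467741 to 4481305 (19.5, -0.45), in the deposited table. For a further 296 circRNAs, with means of up to 6.12, the authors' deposited table listed an unadjusted p alone. It was below 0.05 for 36 of these 296 in the deposited table, beside 80 of all 883 (9.06%). All 36 were on the plateau, since each of the 7 off-plateau circRNAs at that threshold had an adjusted p. Their negative signs thus follow from the plateau, which is all negative. Chromosome X, which carries Ftsj1, gave 6 circRNAs with log2 fold changes from -0.89 (SE 3.50) to 1.74 (SE 1.62) in the authors' deposited table, none on the plateau.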

How the data were processed

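CircRNA libraries of liver were sequenced from 3 Ftsj1-deficient and 3 wild-type mice. Build GRCm39 and the tools BWA 0.7.17-r1188 and DESeq2 stand in the submitters' processing notes, without roles or order. The circRNA caller, the model and the handling of the 2 runs of a library are not stated there or in the labels. If the runs entered the fit as separate samples, the errors would be too small.

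Per the file headers, the deposited table gives a mean normalized signal (baseMean), a log2 fold change with its SE, a test score (the Wald statistic) and p-values with adjusted p-values. The headers do not name the groups, and the comparison was read as that of the genotypes. The deposited score equalled fold change over SE, and the deposited p-values its two-sided normal tail. No per-sample values were used, so depth per library is unknown, and no model was refitted.

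With Python 3.11.15, pandas 2.3.3, numpy 2.4.6 and scipy 1.17.1, intervals were taken as log2 fold change ± 1.96 SE. Span is end minus start, which may be off by 1 base. The plateau is the block above the largest gap in the size of the log2 fold change minus log2 of the mean. Loci are runs of circRNAs that overlap. Differences between circRNAs of a locus, and between organs, were divided by the root of the summed squared SE and adjusted by Benjamini-Hochberg over all 221 or 3341 of them. Scripts were tested on simulated data.

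CircRNAs were named by rule: adjusted p below 0.1, positive with unadjusted p below 0.05, the 10 highest means, the 10 smallest SE, the locus of the called circRNA, the 5 loci with most circRNAs, the 3 longest and 3 shortest, the 5 most abundant without a p-value and the 3 most abundant of the plateau. Some were named outside these rules. These include the largest positive fold change, the other negative ones off the plateau and the loci wholly on the plateau. Pairs with ends within 20 bp, circRNAs of chromosome X and those marked as picked after their values were seen are further ones. The tie for the fifth locus was broken by summed mean, chosen after the data were seen. The circRNAs, lists and tests were chosen with earlier results of these data known. The annotation at hand is for GRCm38, on whose exon boundaries both ends of only 27 circRNAs lay. Host genes, sequences and the host gene and cell marker lists were therefore not used here. Alternatives covered the adjustment, the threshold, the reference distribution, the SE, a minimum mean, the plateau and the definition of a locus.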

Additional observations from a re-analysis of the deposited data

How the results depend on the processing

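No paired analysis was possible because values per mouse were not analysed here, so leaving out single mice was not run either. The count of 1 called circRNA was unchanged when adjusted over every p-value. It became 17 at a threshold of 0.1, 5 with a minimum mean of 10, and 0 with a t reference of 4 degrees of freedom, with the SE multiplied by the root of 2, or without the plateau, where 7 had an unadjusted p below 0.05. The called circRNA is on the plateau, so leaving the plateau out removes it. The 76 negative circRNAs at an unadjusted p below 0.05 became 9 with a minimum mean of 10, 3 without the plateau, 22 with the t reference and 23 with the larger SE. The 4 positive ones became 0 with the t reference and 0 with the larger SE. The median log2 fold change of -0.22 was -0.10 with a minimum mean of 10, 0.0036 without the plateau and -0.049 when weighted by the inverse squared SE. Leaving out the plateau, which is all negative, lowers the negative count and raises the median by definition. The share of the 10 most abundant, 18.8%, became 16.95% without the most abundant and 21.9% over means of at least 10. The median span was 3446 bp weighted by mean and 3628 bp over means of at least 10. The 27.0% of circRNAs sharing a locus became 10.2% with a reciprocal overlap of 50% and 17.3% over means of at least 10. The 1 pair that differed within a locus became 0 without plateau circRNAs (1 pair at an unadjusted p below 0.05), and 0 with the larger SE and with the t reference (2 pairs each), both chosen after seeing the data. That pair has a plateau member, so it is removed with the plateau. No difference between organs passed over all 3341, and 1 did over the pairs with liver alone, also chosen after seeing the data. The plateau count of 135 was the same at a fixed excess of 2.5 and of 2, as it had to be, since no excess lay between 1.79 and 2.89. The cause of the other changes was not tested. Depth per library is unknown, and in the 2 less abundant groups a fold change under 25.7 could not reach an unadjusted p of 0.05 at the median SE.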
